A study of Rattus norvegicus with 6 samples.

Results

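Proteasome genes were compared between Fmr1 KO and WT hippocampus. Of 17455 genes in the count table, 50 had a symbol made of Psma, Psmb, Psmc, Psmd, Psme, Psmf or Psmg and a number. They comprised 20 Psma and Psmb genes of the core particle, 21 Psmc and Psmd genes of the regulatory particle, 5 Psme genes, 1 Psmf gene and 3 Psmg genes. The KO group consisted of 3 male Long Evans rats that carry the LE-Fmr1em2Mcwi allele, a constitutive knockout, and the WT group of 3 male rats of the same cross. By the study's methods, WT and KO rats were chosen from littermates, and a single litter per group was used for transcriptomics. Whether the KO and WT rats sequenced shared a litter is not stated. If they did not, litter and genotype cannot be told apart. All rats were 10 weeks old, and each library was made from hippocampal RNA of 1 rat. Psmg3 was not analysed here. Of the 50 genes, Psmc3ip and Psme3ip1 are named for their binding to a proteasome gene product and encode neither subunits nor assembly factors, and Psma3l is listed by RefSeq as a synonym of Psma3.

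The proteasome degrades proteins that carry ubiquitin chains. Its core particle is a barrel of stacked rings, in which the alpha subunits (Psma) form the gated ends and the beta subunits (Psmb) form the inner chamber that holds the proteolytic sites. The regulatory particle caps the core. Its base unfolds substrates with a ring of ATPases (Psmc), and its lid, built from Psmd subunits, removes the ubiquitin chain. In neurons, protein degradation by the proteasome contributes to synaptic plasticity, and FMRP, the RNA-binding protein encoded by Fmr1, controls the translation of synaptic proteins.

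Libraries held 9619812 to 13390476 counts, and levels are given as CPM, read counts scaled to the size of each library with the TMM factors of edgeR. The genotype label was checked against Fmr1, and markers of cell types were read beside the tissue label. Fmr1 had 17.4, 13.1 and 11.6 CPM in KO against 47.6, 50.6 and 51.6 CPM in WT, which edgeR gave as -1.83 on the log2 scale, KO over WT (SE 0.12, adjusted p = 5.7e-06). All 8 neuronal markers and 8 astrocyte markers passed the filter on low counts, which does not tell the hippocampus from other brain regions. Of 8 listed markers of CA pyramidal cells 6 were tested, and of 7 of dentate granule cells 4 were. The CA markers summed to 1655 to 1782 CPM in KO and 1576 to 1861 CPM in WT. The dentate markers summed to 238 to 256 CPM in KO and 216 to 298 CPM in WT. Of 8 markers of choroid plexus and ependyma 5 passed the filter. These summed to 26.5 to 29.9 CPM in KO and 32.1 to 36.8 CPM in WT. WT replicate 3 stood apart from the other WT libraries. On the first principal component of all genes it scored -6.20, among the KO libraries (-11.0 to -5.49), whereas the other WT libraries scored 12.4 and 19.6. KO replicate 3 stood apart in turn on the second component, with a score of -20.1 against 4.10 and 4.98 in KO replicates 1 and 2. WT replicates 1, 2 and 3 scored -1.91, 0.162 and 12.8 on that component. The first component held 28.8% of the variance and the second 21.7%. Of 12 oligodendrocyte markers, all tested, 12 had a negative log2 fold change and 6 an unadjusted p under 0.05 in edgeR. Of all genes tested, 49.5% had a negative value and 5.15% passed that threshold lower. After adjustment, 0 of the 12 markers passed (smallest adjusted p = 0.219 from edgeR). The summed level of these markers was 10819 to 12366 CPM in KO and 13685 to 14468 CPM in WT. In bulk tissue, fewer cells of a type and less RNA per cell cannot be told apart. The part of these markers in the proteasome values was not tested.

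Transcripts of the proteasome were nearly level between the genotypes. Of the 50 genes, 48 had enough counts to be tested, and 0 passed an adjusted p of 0.05 in edgeR in either direction, against 0.0254% of all 11800 genes tested that passed lower and 0% that passed higher. The study's methods call genes without adjustment of p. By that rule, with p under 0.05, edgeR found 3 genes lower in KO (Psmb8, Psmb5 and Psmg4) and 1 higher (Psma3). The same threshold was passed by 5.15% of all genes tested in the lower and 4.19% in the higher direction, so the counts among proteasome genes are read against these shares and are no result about them. DESeq2 also passed 0 of the 39 members to which it gave an adjusted p, the smallest of which was 0.401, against 0.207% of all genes passed lower and 0.0345% higher. These shares are over all 14474 genes with a p-value, including genes without an adjusted p. Without adjustment DESeq2 gave the same 4 genes as edgeR, against 3.24% of all genes lower and 2.55% higher. The median log2 fold change of KO over WT was -0.030 over the 48 genes and 0.0017 over all genes tested. A negative value was seen in 31 of the 48 genes, against 49.5% of all genes. This count depended on single libraries, with 24 genes when WT replicate 1 was left out, 25 when WT replicate 2 was, and 39 when WT replicate 3 was. It was 31, 26 and 34 when KO replicate 1, 2 or 3 was the library left out.

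The intervals of single genes, not adjusted over genes, were narrow for most members. They measure the spread between these libraries and not between litters. The 95% interval of the fold change lay within 1.5-fold in both directions for 44 of the 48 genes, against 80.3% of all genes tested, and the exceptions were Psmb8, Psmb9, Psmb11 and Psmg4. The median standard error was 0.075 on the log2 scale for proteasome genes and 0.10 for all genes, and the median WT level was 91.0 CPM against 32.5 CPM. The estimated fold was within 1.1-fold for 41 of the 48 genes, and for 66.4% of all genes.

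**Figure D1:**
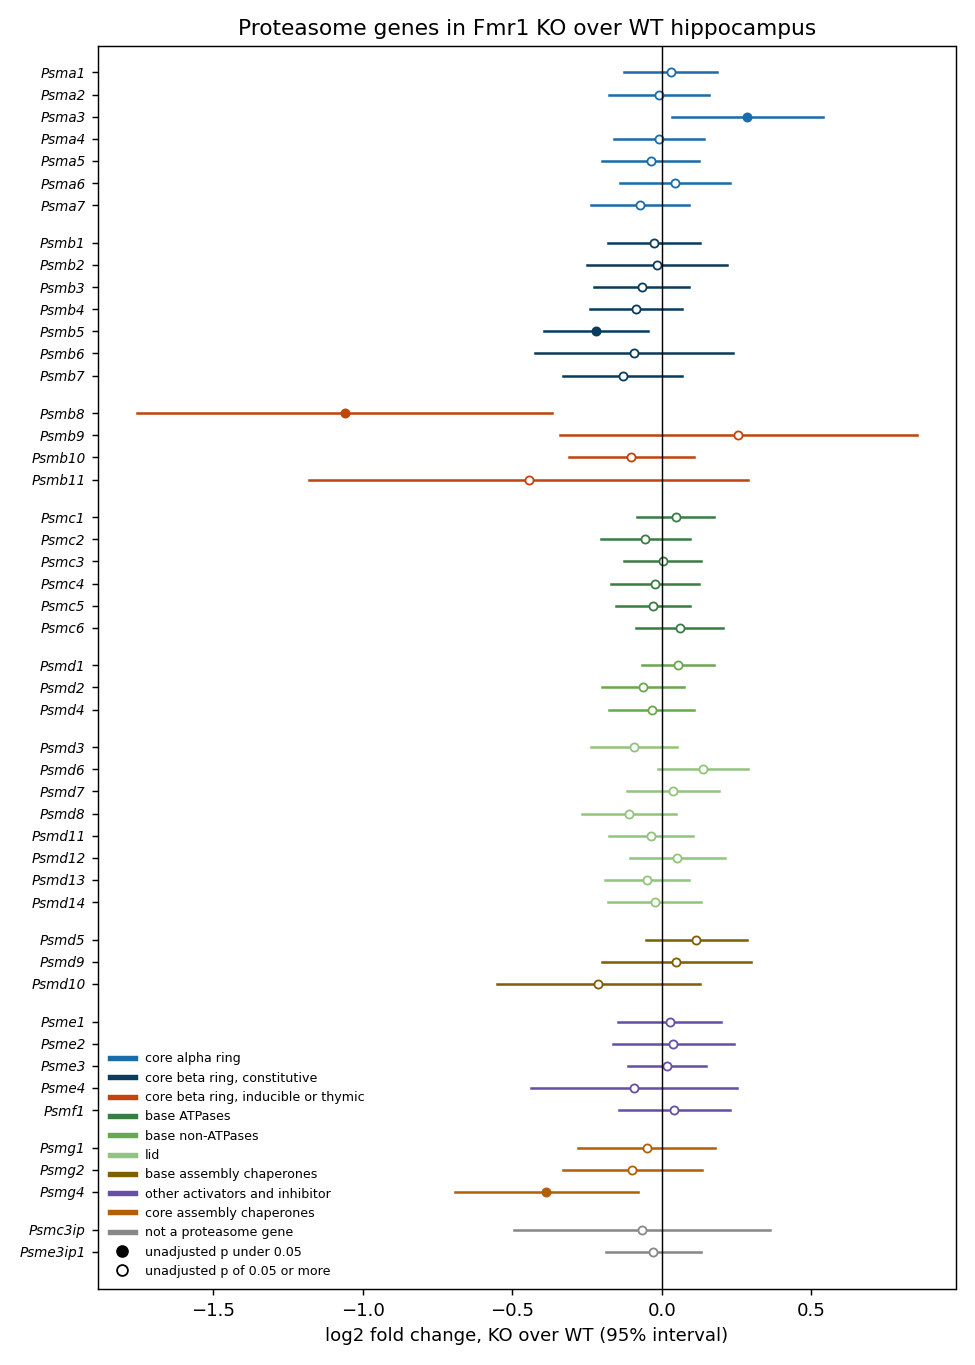
Log2 fold change of KO over WT (x axis) for each of the 48 tested genes (y axis), with its 95% interval from edgeR (n = 3 each) and colours for the class of subunit. Filled points mark the 4 genes at an unadjusted p under 0.05, and most intervals cross 0 close to it, with the widest around Psmb8, Psmb9 and Psmb11.

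To show the regulatory DNA next to the values, the upstream sequences of the 4 genes with an unadjusted p under 0.05 are printed here from RefSeq on the GRCr8 build, 5′ to 3′ on the strand of the gene, and end where the annotated gene span begins, which for Psmb8, Psmg4 and Psma3 is 18, 57 and 35 bases before the start used in the promoter table. Psmb5 is on the minus strand at chr15:32047380-32047629, Psmb8 on the minus strand at chr20:4657050-4657281, Psmg4 on the minus strand at chr17:30923431-30923623 and Psma3 on the plus strand at chr6:95219499-95219713. Capitals mark matches to TGACNNNGC, the core of the antioxidant response element through which Nfe2l1 activates proteasome genes in mouse and human cells, or to CCAAT, the box bound by NF-Y. Each motif was searched on both strands, and the letters in capitals did not overlap between motifs.
Psmb5: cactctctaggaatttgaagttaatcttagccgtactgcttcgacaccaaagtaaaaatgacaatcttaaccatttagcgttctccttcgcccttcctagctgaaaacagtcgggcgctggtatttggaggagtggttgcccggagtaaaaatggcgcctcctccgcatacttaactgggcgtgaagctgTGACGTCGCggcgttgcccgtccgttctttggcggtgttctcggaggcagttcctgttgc
Psmb8: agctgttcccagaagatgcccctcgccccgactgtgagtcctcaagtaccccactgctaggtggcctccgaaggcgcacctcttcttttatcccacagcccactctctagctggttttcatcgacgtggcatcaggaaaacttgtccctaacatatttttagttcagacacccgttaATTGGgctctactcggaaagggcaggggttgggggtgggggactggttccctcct
Psmg4: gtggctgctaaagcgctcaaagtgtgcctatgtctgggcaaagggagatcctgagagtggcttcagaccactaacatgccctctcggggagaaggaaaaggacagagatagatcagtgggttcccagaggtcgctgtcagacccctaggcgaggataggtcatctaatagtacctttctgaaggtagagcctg
Psma3: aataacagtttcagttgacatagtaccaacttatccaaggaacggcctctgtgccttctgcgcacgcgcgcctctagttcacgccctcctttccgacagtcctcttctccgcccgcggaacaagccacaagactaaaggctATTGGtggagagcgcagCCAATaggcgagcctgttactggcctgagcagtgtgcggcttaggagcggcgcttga

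Psmb5 held 1 match to TGACNNNGC, Psmb8 held 1 CCAAT box read on the opposite strand, Psma3 held a pair of CCAAT boxes in opposite orientation, and the printed part of Psmg4 held no match. Over the 44 members with a promoter in RefSeq, in windows of 250 bases before the start used in the promoter table, TGACNNNGC was present in 7 (15.9%) against 10.1% of 33469 promoters of all genes. Its carriers were Psma3, Psmb2, Psmb5, Psmb6, Psmd1, Psmd9 and Psme4, and in Psma3 the match lay in the stretch left out above. CCAAT was present in 21 members (47.7%) against 34.0% of all promoters. The core of the interferon-stimulated response element, a pair of GAAA runs parted by any 2 bases, was present in 5 members (11.4%) against 3.41% of all promoters. Its carriers were Psma4, Psmb3, Psmb10, Psmd7 and Psme2, of which Psmb10 and Psme2 were 2 of the 5 interferon-inducible members, and the windows of Psmb8, Psmb9 and Psme1 held none. These matches describe letters only. The 7 carriers of TGACNNNGC had log2 fold changes from -0.22 for Psmb5 to 0.29 for Psma3. The part of the motif in these values was not tested.

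Psmb5 carries the chymotrypsin-like site of the constitutive proteasome and was the lowest of the ring in KO relative to WT. It had 103, 107 and 100.4 CPM in KO against 127, 129.99 and 105 CPM in WT. The level in WT replicate 3 fell between the KO values, so the groups overlapped. Mean levels were 103 ± 3.51 CPM in KO and 121 ± 13.9 CPM in WT (SD, n = 3 each). The log2 fold change was -0.22 (SE 0.081, 95% interval -0.39 to -0.047, unadjusted p = 0.0163, adjusted p = 0.433 from edgeR). Without WT replicate 3 the log2 fold change was -0.31 and the adjusted p from edgeR was 0.0252, the only call of a proteasome gene in any fit. That fit passed 1.44% of all genes as lower and 0.715% as higher, and it left out the WT library closest to KO. Other omissions ended the unadjusted call of Psmb5 in edgeR. The log2 fold change was -0.20 (unadjusted p = 0.0597) when KO replicate 3 was left out, -0.18 (unadjusted p = 0.0596) when WT replicate 1 was and -0.16 (unadjusted p = 0.0916) when WT replicate 2 was.

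Psmb7, the trypsin-like subunit, had 142, 157 and 159 CPM in KO against 188, 170.2 and 143 CPM in WT. KO replicates 2 and 3 lay within the WT range and KO replicate 1 just below WT replicate 3, and the log2 fold change was -0.13 (95% interval -0.33 to 0.068). Psmb6, the caspase-like subunit, had 9.64, 8.05 and 10.9 CPM in KO against 9.42, 11.3 and 9.47 CPM in WT. The groups overlapped, and the log2 fold change was -0.094 (95% interval -0.43 to 0.24). RefSeq lists Psmb6l as a synonym and 2 pseudogenes of Psmb6, so its reads may be shared with near-identical copies.

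In cells exposed to interferon, 3 inducible subunits replace the constitutive catalytic ones in newly made proteasomes, which then favour peptides for antigen presentation. Psmb8, the counterpart of Psmb5, had 12, 13 and 14 counts in KO replicates 1, 2 and 3 against 37, 26 and 25 counts in WT replicates 1, 2 and 3. Scaled, these were 1.11, 0.960 and 1.46 CPM in KO against 3.23, 2.03 and 2.06 CPM in WT. All 3 KO libraries were below all 3 WT libraries. The log2 fold change was -1.06 (SE 0.32, 95% interval -1.75 to -0.37, unadjusted p = 0.00539, adjusted p = 0.341 from edgeR), the largest in size of the 48 genes. Leaving out single libraries gave -1.23 to -0.81, with adjusted p from 0.107 to 0.823 in edgeR. DESeq2 gave the gene an unadjusted p of 0.0224 and no adjusted p.

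For the other inducible subunits the 95% interval included 0. Psmb9, the counterpart of Psmb6, had 3.61, 2.80 and 1.88 CPM in KO against 2.18, 2.497 and 2.31 CPM in WT, with KO values on either side of all WT values. Its log2 fold change was 0.26 (SE 0.28, 95% interval -0.34 to 0.85, adjusted p = 0.819 from edgeR), and 0.030 when KO replicate 1 was left out. Psmb10, the counterpart of Psmb7, had 21.2, 21.6 and 21.8 CPM in KO against 24.6, 22.4 and 22.5 CPM in WT. All KO libraries were below the WT libraries by a small margin, and the log2 fold change was -0.10 (SE 0.098, 95% interval -0.31 to 0.11, adjusted p = 0.784 from edgeR). On the GRCr8 map, Psmb8 lies between the peptide transporter genes Tap2 and Tap1, and Psmb9 follows Tap1. Tap1 had 4.45, 4.95 and 3.76 CPM in KO against 4.45, 4.21 and 4.04 CPM in WT, a log2 fold change of 0.061, and Tap2 had too few counts to be tested. Of 12 listed genes of antigen processing and the interferon response, 10 were tested and 0 passed even an unadjusted p of 0.05 in edgeR, with log2 fold changes from -0.059 for Tapbpl to 0.18 for Ifit3. Irf1, an interferon-induced activator of the inducible subunits, had a log2 fold change of -0.00070.

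Markers of cells that can carry the inducible subunits were read beside these values. The 8 microglia markers, all tested, summed to 375 to 422 CPM in KO and 386 to 450 CPM in WT. Of these, 7 had a negative log2 fold change and 1, Cx3cr1, had an unadjusted p under 0.05 in edgeR (-0.34). Among all genes tested, 49.5% had a negative value and 5.15% passed that threshold lower. The 4 tested blood markers summed to 56.1 to 73.5 CPM in KO and 53.1 to 128 CPM in WT. WT replicate 1, the library highest in Psmb8, was also the highest in this sum. WT replicate 2 was the lowest in this sum (53.1 CPM) and had 2.03 CPM of Psmb8, from 26 counts. The part of the microglia and blood markers in the level of Psmb8 was not tested.

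**Figure D2:**
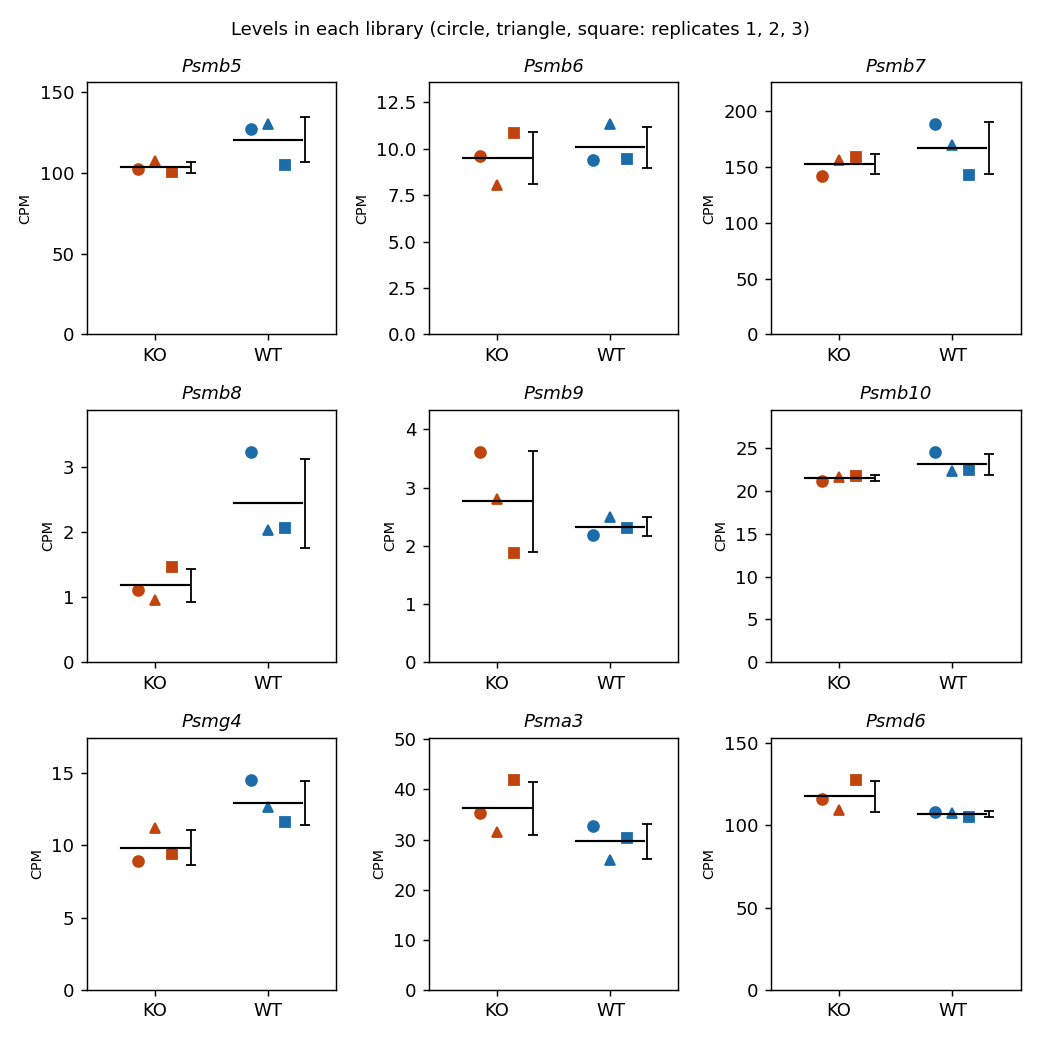
TMM-scaled CPM (y axis, starting at 0) in KO and WT hippocampus (x axis) for 9 proteasome genes, with 1 symbol per library, a line at the mean and an error bar of 1 SD (n = 3 each). KO values lie apart from WT values for Psmb8, Psmb10, Psmg4 and Psmd6, whereas WT replicate 3 (square) falls among the KO values for Psmb5.

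All 7 constitutive beta subunits had negative log2 fold changes, from -0.22 for Psmb5 to -0.017 for Psmb2, with a median of -0.086. Among them only Psmb5 had an unadjusted p under 0.05 in edgeR. The same ring was lowest of all in WT replicate 3. Its mean log2 CPM relative to the WT mean was -0.12, -0.10 and -0.038 in KO replicates 1, 2 and 3, against 0.074, 0.094 and -0.17 in WT replicates 1, 2 and 3, so that the KO libraries lay within the WT range. Leaving out WT replicate 3 put the median of the ring at -0.15. It was -0.0052 when WT replicate 2 was the library left out, and -0.036 for WT replicate 1.

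The alpha ring showed a median log2 fold change of -0.0093 over 7 tested genes. The highest member was Psma3, with 35.2, 31.4 and 42.0 CPM in KO against 32.6, 25.9 and 30.3 CPM in WT. KO replicate 2 lay within the WT range, so the groups overlapped. The log2 fold change was 0.29 (SE 0.12, 95% interval 0.032 to 0.54, unadjusted p = 0.0297, adjusted p = 0.474 from edgeR). Psma3 was at 0.17 (unadjusted p = 0.175 from edgeR) when KO replicate 3 was left out, and at 0.20 (unadjusted p = 0.130 from edgeR) when WT replicate 2 was. Psma3l, its synonym with a row of its own, had 1, 6 and 4 counts in KO against 4, 3 and 2 counts in WT and was not tested. RefSeq also lists 2 pseudogenes of Psma3, and reads of these copies may have been split or lost in counting, which makes the level of Psma3 uncertain. The other 6 tested alpha subunits had log2 fold changes from -0.073 for Psma7 to 0.045 for Psma6. Psma8, an alpha subunit of the testis, had 0 counts in all 6 libraries, and 3 counts, the limit that a count of 0 allows, correspond to 0.221 to 0.313 CPM per library. Psmb11, the subunit of the thymus, had 8 to 21 counts in KO and 16 to 24 counts in WT and a log2 fold change of -0.44 (95% interval -1.18 to 0.29).

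The base ATPases lay close to no difference. Their 6 log2 fold changes ran from -0.056 for Psmc2 to 0.059 for Psmc6, with a median of -0.0093, and no 95% interval reached beyond -0.20 or 0.21. Psmc6, the member of smallest p, had 119.3, 113 and 124 CPM in KO against 122, 111 and 109 CPM in WT. Most KO and WT values were interleaved, and the adjusted p was 0.834 from edgeR. Among the non-ATPase subunits of the base, Psmd2, a scaffold that binds the ubiquitin-like domains of shuttle factors, had 259.7, 271 and 274 CPM in KO against 293, 289 and 259 CPM in WT, a log2 fold change of -0.063 (95% interval -0.20 to 0.074). Psmd4, a receptor for ubiquitin chains, had a log2 fold change of -0.033. Psmd1, another scaffold, had 225, 231 and 228 CPM in KO against 224, 215 and 219 CPM in WT, a log2 fold change of 0.053 (95% interval -0.067 to 0.17). Every KO library lay above every WT library for Psmd1, by less than 1 CPM between the closest libraries.

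In the lid, log2 fold changes ran from -0.11 for Psmd8 to 0.14 for Psmd6, with a median of -0.030 over 8 genes. Psmd14, the deubiquitinase that cuts the chain from the substrate, had a log2 fold change of -0.023 (95% interval -0.18 to 0.13). Psmd6, a structural subunit, had 116, 109 and 128 CPM in KO against 108, 108 and 105 CPM in WT. Every KO library lay above every WT library, and the log2 fold change was 0.14 (SE 0.070, 95% interval -0.013 to 0.29, unadjusted p = 0.0704, adjusted p = 0.553 from edgeR). It passed an unadjusted p of 0.05 with library totals in place of TMM, and without KO replicate 2. Groups that did not overlap were seen in 6 of the 48 proteasome genes. In 3 of these (Psmb8, Psmb10 and Psmg4) KO was lower, against 7.52% of all genes tested, and in the other 3 (Psmd1, Psmd5 and Psmd6) KO was higher, against 7.19%. These shares are near the background.

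The assembly factors were read next. Psmg4, a chaperone that acts with Psmg3 in building the alpha ring, had 8.89, 11.2 and 9.40 CPM in KO against 14.6, 12.6 and 11.6 CPM in WT. No KO library reached the level of any WT library. Mean levels were 9.84 ± 1.22 CPM in KO and 12.9 ± 1.497 CPM in WT (SD, n = 3 each). The log2 fold change was -0.39 (SE 0.14, 95% interval -0.69 to -0.080, unadjusted p = 0.0170, adjusted p = 0.438 from edgeR). Psmg4 was at -0.32 (unadjusted p = 0.0706 from edgeR) when KO replicate 1 was left out, and at -0.29 (unadjusted p = 0.0817 from edgeR) when WT replicate 1 was. RefSeq lists 2 pseudogenes of Psmg4. Psmg1 and Psmg2, which form the other pair of chaperones of the alpha ring, had log2 fold changes of -0.051 and -0.099. Of the chaperones of the base, which leave before the particle is complete, Psmd5 had 44.6, 45.8 and 47.5 CPM in KO against 39.9, 43.4 and 43.8 CPM in WT, a log2 fold change of 0.12 (95% interval -0.054 to 0.28). Psmd9 had a log2 fold change of 0.049 and Psmd10 of -0.21 (95% interval -0.55 to 0.13).

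The alternative activators and the inhibitor differed little between genotypes. Psme1 and Psme2, which form the interferon-inducible activator ring and are separated on the GRCr8 map only by Emc9, had log2 fold changes of 0.026 and 0.038. Psme3, which forms the nuclear activator, had a log2 fold change of 0.016 and Psmf1, an inhibitor of the core particle in vitro, of 0.042. Psme4, a large single-chain activator, had 110.3, 93.6 and 104 CPM in KO against 89.9, 136 and 101 CPM in WT. The spread lay mainly between the WT libraries, of which replicate 2 was the highest, and the log2 fold change was -0.094 (SE 0.15, 95% interval -0.44 to 0.25, adjusted p = 0.882 from edgeR). Without WT replicate 2 it was 0.10. Psmc3ip, which acts in meiotic recombination, had a log2 fold change of -0.066. Psme3ip1, whose product binds that of Psme3, had 50.1, 49.7 and 53.5 CPM in KO against 50.8, 52.8 and 52.6 CPM in WT, which overlapped, and a log2 fold change of -0.029 (95% interval -0.19 to 0.13).

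Core genes were then set against regulatory genes. Over 18 tested core genes the median log2 fold change was -0.053, with 14 negative values. Over 21 regulatory genes it was -0.023, with 12 negative values. Among all genes tested, 49.5% had a negative value. Leaving out single libraries moved the core median between -0.12 (no WT replicate 3) and -0.0065 (no WT replicate 2), and the regulatory median between -0.048 (no WT replicate 3) and 0.018 (no WT replicate 1). At an unadjusted p under 0.05, edgeR found 2 lower and 1 higher gene in the core and 0 in the regulatory particle. Of all genes tested, 5.15% passed that threshold lower and 4.19% higher, so these counts are no result about either particle. The count of regulatory genes past an adjusted p was also 0 in edgeR and DESeq2. In each library, the mean log2 CPM of the core minus that of the regulatory genes, centred on the WT mean, was -0.046, -0.096 and -0.10 in KO replicates 1, 2 and 3 and 0.028, 0.013 and -0.041 in WT replicates 1, 2 and 3. Every KO value lay below every WT value, the closest being KO replicate 1 and WT replicate 3. With only the 14 constitutive core genes against the 17 regulatory subunits without Psmc3ip, Psmd5, Psmd9 and Psmd10, the values were -0.022, -0.036 and -0.0014 in KO and 0.020, 0.032 and -0.052 in WT, and the groups overlapped. No p-value is given for these scores, because the genes were chosen with results known.

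**Figure D3:**
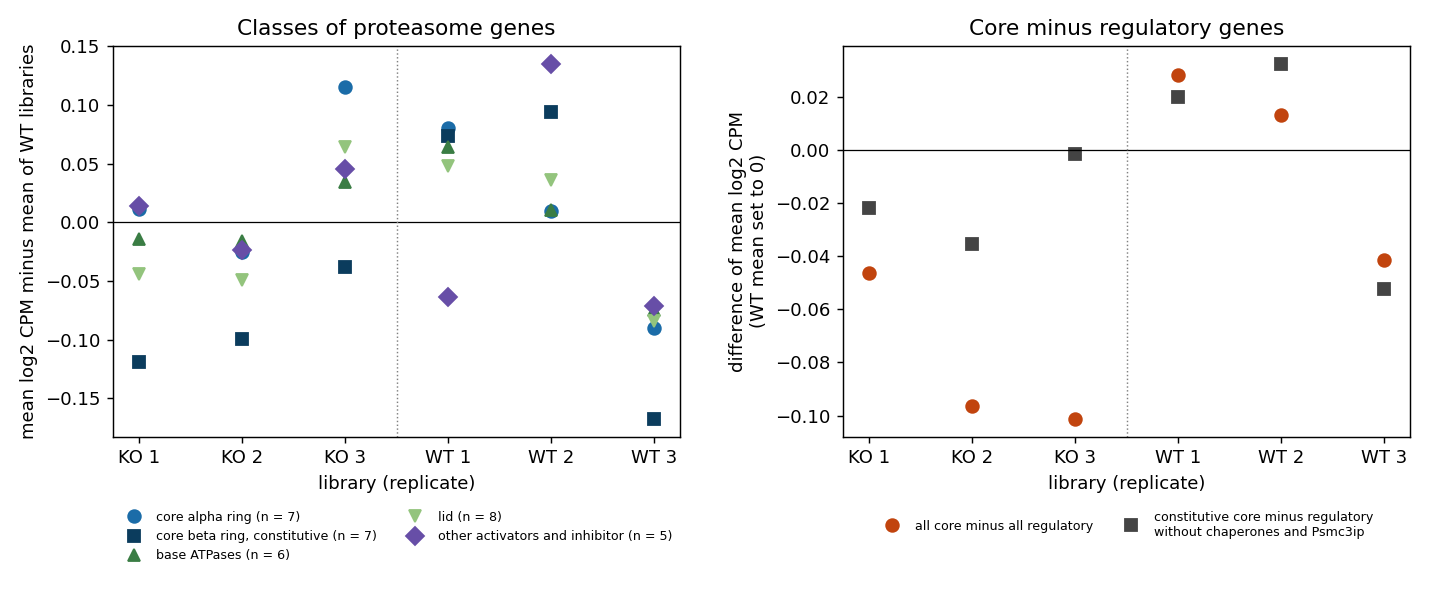
Left, mean log2 CPM of 5 classes of proteasome genes minus the mean of the WT libraries (y axis) in each library (x axis). Right, mean log2 CPM of core genes minus that of regulatory genes, with the WT mean set to 0, for all genes (circles) and for constitutive subunits (squares). WT replicate 3 is the lowest library of each class on the left, and on the right the circles of KO lie below those of WT whereas the squares overlap.

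WT replicate 3 was low in most proteasome genes. In 35 of the 48 genes WT replicate 3 was the lowest WT library, and in 21 it was the lowest of all 6. The same counts were not made over all genes tested. Whether the pattern is particular to proteasome genes was therefore not tested. The mean log2 CPM over the 48 genes relative to the WT mean was -0.078, -0.055 and -0.016 in KO replicates 1, 2 and 3, against 0.049, 0.049 and -0.098 in WT replicates 1, 2 and 3. The KO libraries lay within the WT range. Summed over the 48 genes, the level was 4255, 4286 and 4464 CPM in KO against 4560.1, 4532 and 4121 CPM in WT, where WT replicate 3 was again below all KO libraries. Without WT replicate 3, edgeR found 8 genes lower at an unadjusted p under 0.05 (Psma7, Psmb4, Psmb5, Psmb7, Psmb8, Psmd3, Psmd8 and Psmg4) and 1 higher (Psma3), against 8.93% and 8.69% of all genes in that fit. The median over the 48 genes was then -0.069, but it was -0.00070 when WT replicate 1 was left out instead and -0.0029 when WT replicate 2 was.

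Genes that work with the proteasome but have other symbols were read in the same fit. Of 8 further subunits and assembly factors listed, 4 were tested, of which 0 had an unadjusted p under 0.05 in edgeR. Adrm1, a ubiquitin receptor of the base, had a log2 fold change of -0.017, Sem1 of the lid of -0.12, and Akirin2, which binds the proteasome for its import into the nucleus, of 0.013. None of 10 genes of ubiquitin activation and conjugation had an unadjusted p under 0.05 in edgeR, nor did any of 15 tested shuttle and substrate extraction factors, whose log2 fold changes ran from -0.070 for Vcp, the segregase that extracts ubiquitinated proteins, to 0.13 for Ddi2. All 11 transcription factors of proteasome genes and their processing enzymes were tested, and 0 had an unadjusted p under 0.05 in edgeR. Their log2 fold changes ran from -0.079 for Keap1 to 0.23 for Maff. Of the 11 values 10 lay above 0, and of all genes tested 49.5% lay below 0. Nfe2l1, the factor that raises proteasome transcription when proteolysis is impaired, had 367, 372 and 377 CPM in KO against 359, 341 and 373 CPM in WT, a log2 fold change of 0.056 (95% interval -0.069 to 0.18). Ube3a, the ubiquitin ligase lost in Angelman syndrome, was read with the deubiquitinases bound to the proteasome. It was the 1 partner gene at an unadjusted p under 0.05 in edgeR. Of all genes tested, 4.19% passed that threshold higher and 5.15% lower, so this count is no result about the partner genes. Ube3a had 80.9, 68.7 and 75.2 CPM in KO against 64.1, 59.8 and 72.9 CPM in WT. KO replicate 2 lay below WT replicate 3, and the log2 fold change was 0.19 (SE 0.087, 95% interval 0.0034 to 0.38, unadjusted p = 0.0465, adjusted p = 0.527 from edgeR). DESeq2 gave Ube3a an unadjusted p of 0.0599 and an adjusted p of 0.573. Leaving out single libraries moved the log2 fold change of Ube3a between 0.13 and 0.27, with unadjusted p from 0.00508 to 0.206 in edgeR.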

How the data were processed

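Total RNA of hippocampal samples was sequenced in 6 libraries, 1 per rat. The authors aligned single-end reads to rn6 with HISAT2 and obtained the deposited counts, whole-number reads per gene symbol without normalization, with htseq-count of HTSeq under its "intersection non-empty" option. FastQC was used for read quality. Versions, annotation and strand setting are not given in the sources used here. A further deposited table holds the authors' DESeq2 comparison (mean level, fold change, standard error, statistic and p-values) and was not used. All columns of counts matched a library label, and 0 were left unassigned.

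Totals were 9619812 to 13390476 counts per library. The fit was made with edgeR 4.0.16 under R 4.3.3, with filterByExpr (minimum count 10), TMM scaling and a robust quasi-likelihood fit with genotype as the only term. The fit covered all 11800 genes kept of 17455, with Benjamini-Hochberg adjustment over these genes and calls at an adjusted p under 0.05. DESeq2 1.42.0 was an alternative, beside RLE scaling, library totals without scaling factors, no filter, a replicate block and leaving out each library. Levels are TMM-scaled CPM. Means of log2 CPM used a prior count of 2. The intervals given for log2 fold changes are 95% intervals from the same fit and are not adjusted over genes. The fit was tested on simulated data.

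Members were all symbols matching the pattern. Full values are given for members with an unadjusted p under 0.05, the member of smallest p in each class, and the catalytic subunits with their inducible counterparts. Partner genes get full values at an unadjusted p under 0.05, at most 4 per list. Values in every library of Psmd1, Tap1, Nfe2l1, Pomp and Uchl5 fall outside these rules and were chosen after they were seen. Members and lists were chosen with earlier results of these data known. Gene names, neighbours and promoter sequences are from RefSeq on GRCr8, whose coordinates were not mixed with rn6. The reference tables hold no transcript lengths, so levels of different genes were not compared. The authors assigned 1 litter per group to the transcriptomics, so p-values measure the spread between these libraries and not between litters. The list of ubiquitin precursor genes is not reported here.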

Additional observations from a re-analysis of the deposited data

How the results depend on the processing

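The count of proteasome genes past an adjusted p of 0.05 was 0 under every alternative that kept all 6 libraries, and 0 to 1 when single libraries were left out. The count at an unadjusted p under 0.05 was 1 to 8 for lower and 0 to 2 for higher genes when single libraries were left out, and 2 were higher with library totals only. Over all genes, the fits other than those given in the report passed 3.16% to 5.12% as lower and 2.73% to 4.96% as higher at an unadjusted p under 0.05. The replicate numbers of KO and WT libraries shared no deviations (correlations of same-numbered libraries 0.028, -0.0088 and -0.078), and with the replicate block the counts were 0 past the adjusted threshold, 3 lower and 1 higher. Leaving out single libraries moved the median log2 fold change between -0.44 and -0.20 for the inducible or thymic subunits, between -0.064 and 0.019 for the base non-ATPases and between -0.032 and 0.092 for the base assembly chaperones. The median of the core minus that of the regulatory genes was -0.029, lay between -0.074 and -0.0046 when single libraries were left out, and was -0.086 with means in place of medians. Of the 48 genes, 21 changed sign in at least 1 fit that left out a library. Their log2 fold changes ran from -0.021 to 0.082 for Psma1, -0.074 to 0.042 for Psma2, -0.066 to 0.038 for Psma4, -0.092 to 0.0053 for Psma5, -0.028 to 0.11 for Psma6, -0.088 to 0.012 for Psmb1, -0.15 to 0.080 for Psmb2, -0.20 to 0.021 for Psmb6, -0.032 to 0.024 for Psmc3, -0.21 to 0.091 for Psmc3ip, -0.074 to 0.018 for Psmc4, -0.0034 to 0.091 for Psmd12, -0.071 to 0.010 for Psmd14, -0.064 to 0.019 for Psmd4, -0.023 to 0.072 for Psmd7, -0.032 to 0.13 for Psmd9, -0.021 to 0.099 for Psme2, -0.0034 to 0.040 for Psme3, -0.22 to 0.10 for Psme4, -0.014 to 0.11 for Psmf1 and -0.13 to 0.084 for Psmg1. With library totals only, Psma2 was at 0.0027 and Psma4 at 0.00099. The cause of these shifts was not tested. Leaving out Psma3l, Psmc3ip and Psme3ip1, an alternative chosen after seeing the data, left the counts at 0, 3 and 1. Psmb8, Psmb9 and Psmb11 had under 50 counts in every library, which limits their precision.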

Other observations

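Pomp, the maturation factor that helps in the last steps of core particle assembly, was high in a single library. It had 65, 307 and 54 counts in KO replicates 1, 2 and 3 against 81, 91 and 84 counts in WT replicates 1, 2 and 3, or 6.02, 22.7 and 5.64 CPM in KO against 7.06, 7.10 and 6.92 CPM in WT. The 2 other KO libraries lay below all WT libraries. The fitted log2 fold change of 0.75 (SE 0.65, 95% interval -0.98 to 2.47, adjusted p = 0.781 from edgeR) therefore rests on KO replicate 2. Psmg1 and Psmg2, which act before Pomp in building the core, had 33.8 and 16.02 CPM in that library, within the range of the other libraries. Pomp was chosen here after its values were seen, and the cause was not tested.

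Uchl5, a deubiquitinase bound to the base through Adrm1, had 24.6, 25.8 and 27.6 CPM in KO against 29.4, 27.8 and 28.1 CPM in WT. The KO libraries were all below the WT libraries, with a log2 fold change of -0.13 (95% interval -0.33 to 0.069, adjusted p = 0.698 from edgeR). Usp14, the other tested deubiquitinase of that list, went the other way. Its KO libraries were all above the WT libraries, with a log2 fold change of 0.11 (95% interval -0.011 to 0.23, adjusted p = 0.553 from edgeR). Uchl5 and Usp14 too were named after their values were seen.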
